A study of Danio rerio with 11 samples.

Results

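The genes described here are 9 zebrafish genes of heme synthesis and red cell iron supply. They are the synthesis enzymes alas2, alad, uros, urod, cpox and fech, the iron uptake genes tfr1a and slc25a37, and tspo. They were chosen by name, as listed heme pathway and erythroid iron genes. No rule on their values was used, but earlier results of these data were known. Each of the 9 names was found once among the 23617 gene identifiers of the count table. All 9 passed the filter on low counts that left 20886 genes for testing, with 132 to 4679 counts per gene and library.

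Heme is built by a fixed series of enzymes that begins and ends in the mitochondrion and runs through the cytosol in between. Red cells are the main site of this synthesis in an embryo, because each globin chain carries a heme, and they take up iron from transferrin at the cell surface and pass it into the mitochondrion for the last step. Several of these genes were identified in zebrafish mutants with red cell defects, among them sauternes (alas2), yquem (urod), chianti (tfr1a) and frascati (slc25a37).

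Total RNA was sequenced from tails, cut behind the yolk sac, of zebrafish embryos at 24 hours post fertilisation (hpf), with 5 tails pooled for each library. The embryos were lsd1 mutants or wildtypes of the lines 36433 and 23095, with no treatment named in the labels. There were 3 libraries of 36433 mutants, 3 of 36433 wildtypes, 3 of 23095 mutants (replicates 1, 2 and 4) and 2 of 23095 wildtypes. Lsd1, encoded by kdm1a, is a histone demethylase that works with partner proteins, mostly to hold genes down. The labels give neither the lesion of either line nor whether pools came from separate clutches, so p-values rest on the spread between these pools alone, which may be technical.

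Total counts ran from 8204459 in 23095 mutant replicate 2 to 17195875 in 23095 wildtype replicate 1. As a check of the labels, kdm1a stood at 34.2 to 36.9 CPM (counts scaled to library size with TMM factors) in the 36433 mutants and at 135 to 162 CPM in their wildtypes. The 23095 mutants had 130 to 170 CPM of kdm1a and the 23095 wildtypes 124 to 142 CPM, so its transcript level does not check the labels of that line. 23095 wildtype replicate 1 stood apart in its blood genes. Its summed embryonic globins were at 333 CPM against 989 to 2229 CPM in the other 10 libraries. The skeletal muscle markers summed to 133164 and 118919 CPM in the 23095 wildtypes and to 46339 to 89056 CPM in the other 9 libraries. The red cell genes gata1a, klf1, klf17, nfe2, epor, epb41b, hemgn and cahz were detected as a sum of 28.2 to 167 CPM per library, so the tails held red cells. In bulk tails, fewer red cells and less RNA per red cell cannot be told apart.

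Of the 9 members, edgeR and DESeq2 called none but tspo in any comparison of mutants with wildtypes, and tspo fell in the mutants when the lines were averaged. In line 36433 the quasi-likelihood F-test of edgeR, with p-values adjusted over all genes by the Benjamini-Hochberg method, called 0 of the 9 members at an adjusted p under 0.05, where it called 0.168% of all genes tested. 2 of the 9 had an unadjusted p under 0.05, against 6.75% of all genes. DESeq2 called tspo there, among 124 of all genes tested. In line 23095 edgeR called 0 of 9 against 1.63% of all genes. There, 2 of 9 had an unadjusted p under 0.05 against 16.8% of all genes, and DESeq2 called 0. In the average over both lines edgeR called tspo, 1 of 9 members, against 2.33% of all genes (1.03% lower). There, 2 of 9 had an edgeR unadjusted p under 0.05 against 17.4% of all genes.

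**Figure D1:**
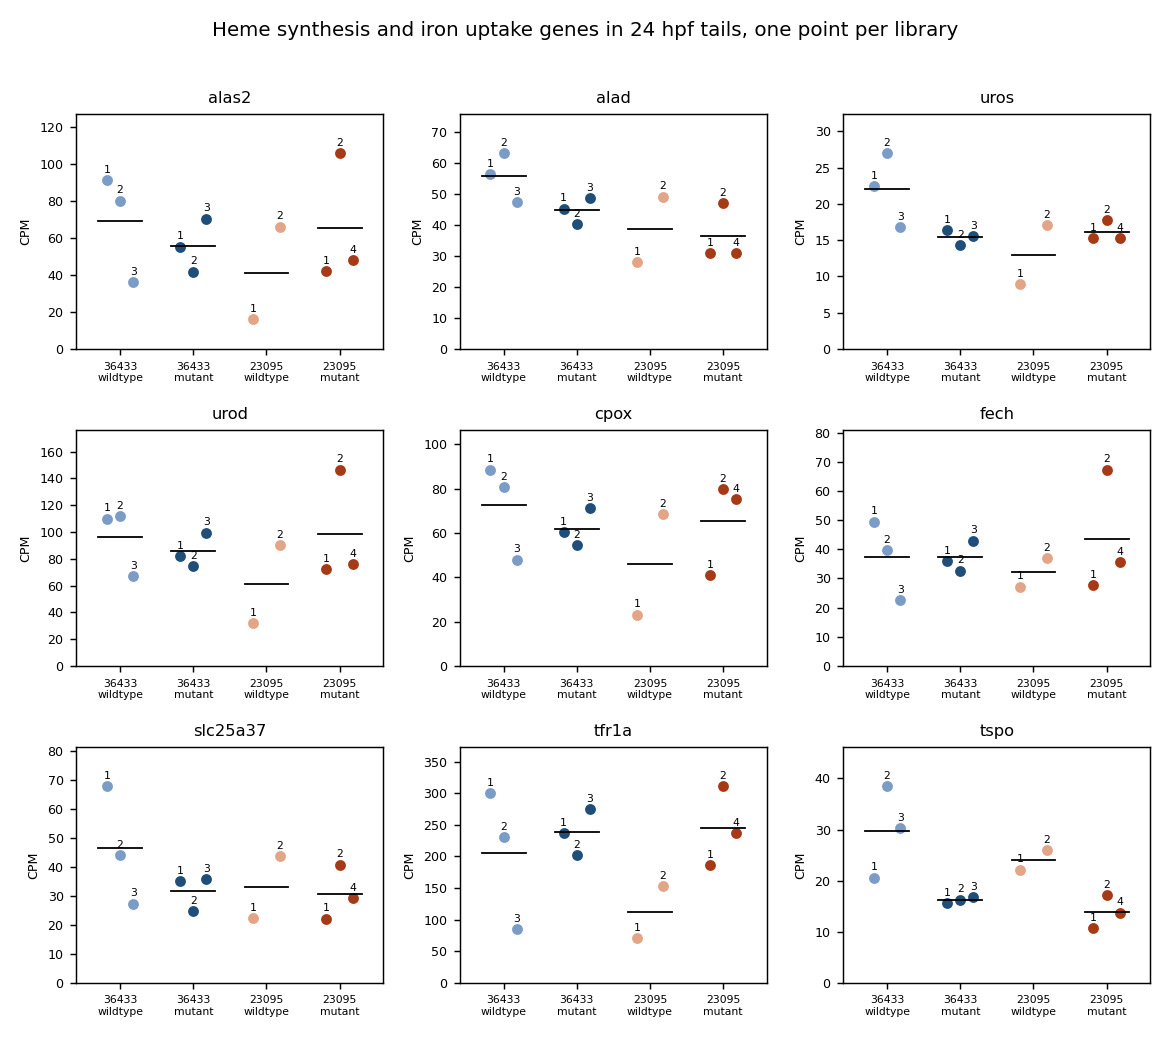
Level of each gene in CPM (counts scaled to library size, linear axes from 0) in each of the 11 libraries, by line and genotype; points are libraries labelled with their replicate number and bars are group means. Mutant and wildtype points overlap in most panels, and for tspo the mutant points lie below the wildtype points in each line.

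The pathway opens with alas2, the red cell form of aminolevulinate synthase, which makes the first precursor in the mitochondrion. Its level was 91.3, 80.2 and 36.0 CPM in the 36433 wildtypes and 55.4, 41.9 and 70.5 CPM in the 36433 mutants, replicates 1 to 3 in order. The 23095 wildtypes had 16.4 and 66.2 CPM and the 23095 mutants 42.3, 106 and 48.1 CPM. The groups overlapped in both lines, with the lowest level of all in 23095 wildtype replicate 1 and the highest in 23095 mutant replicate 2. The mutants of line 36433 stood at 0.808-fold of their wildtypes (95% interval 0.398 to 1.64, edgeR adjusted p = 0.919). Those of line 23095 stood at 1.58-fold (0.701 to 3.54, edgeR adjusted p = 0.585). These intervals are wide enough to hold a fall or a rise, and the value in line 23095 rests on its wildtype pair. Without 23095 wildtype replicate 1 the log2 difference there was -0.02, and without replicate 2 it was 1.99.

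Among the cytosolic enzymes that follow, porphobilinogen synthase, encoded by alad, joins pairs of the first precursor. Its level was 56.5, 63.4 and 47.4 CPM in the 36433 wildtypes against 45.4, 40.4 and 48.8 CPM in the 36433 mutants, with 28.0 and 49.3 CPM in the 23095 wildtypes against 31.0, 47.1 and 31.1 CPM in the mutants. Mutant and wildtype libraries overlapped in both lines, and the log2 differences were -0.31 and -0.09 (edgeR adjusted p = 0.822 and 0.890).

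Uroporphyrinogen III synthase, encoded by uros, makes the first ring-shaped intermediate. Its level was 22.4, 27.0 and 16.8 CPM in the 36433 wildtypes and 16.4, 14.3 and 15.6 CPM in the mutants, which lay just below, as for 6.28% of all genes. It was 8.90 and 17.1 CPM in the 23095 wildtypes and 15.3, 17.7 and 15.3 CPM in the mutants, which lay within or above the range of the wildtypes. The log2 differences were -0.52 (unadjusted p = 0.0394) and 0.31, with edgeR adjusted p = 0.708 and 0.594. The difference of the effects between the lines was 0.83 on the log2 scale and was not called (edgeR unadjusted p = 0.0320, adjusted p = 0.634). Without 23095 wildtype replicate 1 the log2 difference of uros in line 23095 was -0.09.

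The ring is then trimmed by urod, uroporphyrinogen decarboxylase, and oxidised by cpox, coproporphyrinogen oxidase of the mitochondrion. The level of urod was 110, 112 and 67.2 CPM in the 36433 wildtypes, 82.2, 74.6 and 99.6 CPM in the 36433 mutants, 31.9 and 90.0 CPM in the 23095 wildtypes and 72.5, 147 and 76.2 CPM in the 23095 mutants. That of cpox was 88.6, 80.6 and 47.9 CPM, 60.3, 54.4 and 71.1 CPM, 23.2 and 68.4 CPM, and 40.9, 79.8 and 75.1 CPM in the same order of groups. For both genes the groups overlapped in both lines, with a low point in 36433 wildtype replicate 3 and the lowest of all in 23095 wildtype replicate 1. The log2 differences of urod were -0.17 and 0.69 and those of cpox -0.23 and 0.51 in lines 36433 and 23095, and the smallest edgeR adjusted p among these was 0.417. The value of urod in line 23095 was 0.13 without 23095 wildtype replicate 1 and 1.62 without replicate 2, and that of cpox was -0.07 and 1.49.

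Ferrochelatase, encoded by fech, sets iron into the finished ring. Its level was 49.5, 39.7 and 22.6 CPM in the 36433 wildtypes, 36.0, 32.7 and 43.0 CPM in the 36433 mutants, 27.2 and 37.0 CPM in the 23095 wildtypes and 27.7, 67.4 and 35.7 CPM in the 23095 mutants. The mutants of line 36433 lay inside the range of their wildtypes, and in line 23095 replicate 2 of the mutants stood above the rest. The fold was 0.999 in line 36433 (95% interval 0.622 to 1.60) and 1.35 in line 23095 (0.787 to 2.30), with edgeR adjusted p = 0.999 and 0.593.

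Iron reaches fech through tfr1a, the transferrin receptor of red cells, and slc25a37, known as mitoferrin, which carries iron into the mitochondrion. The level of tfr1a was 300, 231 and 85.2 CPM in the 36433 wildtypes and 237, 202 and 275 CPM in the mutants. The 23095 wildtypes had 70.4 and 153 CPM and the 23095 mutants 187, 311 and 236 CPM. The mutants of line 23095 all lay above their wildtypes, as for 16.4% of all genes in that line, and the mutants of line 36433 lay within the range of theirs. The log2 difference was 0.21 in line 36433 (95% interval -0.61 to 1.03, edgeR adjusted p = 0.933) and 1.13 in line 23095 (0.18 to 2.08, unadjusted p = 0.0233, edgeR adjusted p = 0.211). Averaged over both lines it was 0.67 (0.05 to 1.3, edgeR adjusted p = 0.253), and it was not called in any of these. The value in line 23095 was 0.68 without 23095 wildtype replicate 1 and 1.80 without replicate 2. The lines were not shown to differ, with a log2 difference between their effects of 0.92 and an edgeR adjusted p = 0.769.

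For slc25a37 the level was 67.9, 44.0 and 27.3 CPM in the 36433 wildtypes, 35.2, 24.6 and 35.7 CPM in the 36433 mutants, 22.4 and 43.7 CPM in the 23095 wildtypes and 22.2, 40.8 and 29.2 CPM in the 23095 mutants. The groups overlapped in both lines, and replicate 1 of the 36433 wildtypes was the highest library. The log2 differences were -0.55 and -0.11, with edgeR adjusted p = 0.804 and 0.914.

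**Figure D2:**
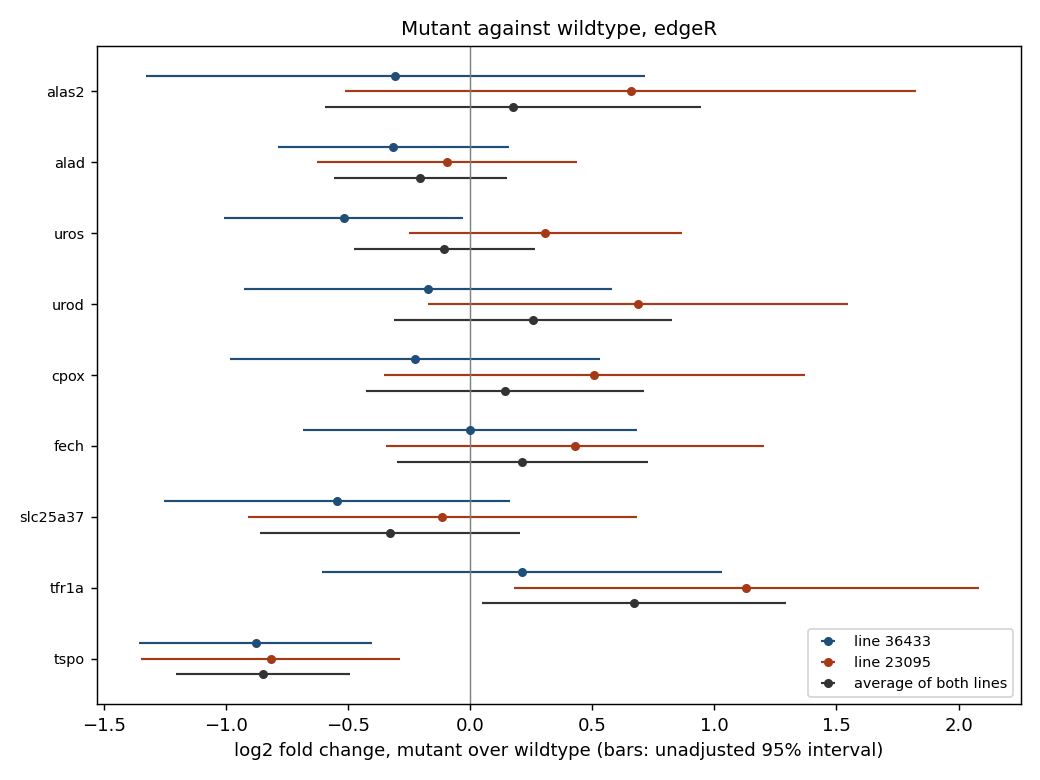
Log2 fold change of mutant over wildtype for each gene in line 36433, in line 23095 and averaged over both, from edgeR, with bars for the unadjusted 95% interval. The 3 intervals of tspo lie below 0, and most others cross it.

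The last member, tspo, encodes the translocator protein of the outer mitochondrial membrane, which binds porphyrins and in mammals is abundant in steroid-making cells and in macrophages. Its level was 20.6, 38.5 and 30.3 CPM in the 36433 wildtypes and 15.5, 16.3 and 16.8 CPM in the mutants. The 23095 wildtypes had 22.2 and 26.0 CPM and the 23095 mutants 10.6, 17.1 and 13.7 CPM. Each mutant library was below each wildtype library of its line, as for 17.4% of all genes in line 23095 and 1.44% in both lines together. The wildtypes of line 36433 varied most, and replicate 1 among them stood closest to the mutants.

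The fold of tspo was 0.544 in line 36433 (95% interval 0.391 to 0.757, edgeR adjusted p = 0.252) and 0.568 in line 23095 (0.393 to 0.820, edgeR adjusted p = 0.115). Averaged over both lines tspo fell to 0.556-fold (0.434 to 0.711, edgeR adjusted p = 0.0216). Both lines gave nearly the same size, with a log2 difference between them of 0.06 and a 95% interval of -0.65 to 0.78. The authors' deposited table gave a log2 fold change of -0.77 with an adjusted p of 0.0485 for tspo in line 36433. For line 23095 the authors' deposited table gave -0.69 with 0.0579, and it held no adjusted p under 0.05 for the other members in either line. The deposited values come from the authors' own fit. In line 23095 its log2 fold changes were smaller in size than those found here for each member, as for tfr1a (0.60 against 1.13).

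The call of tspo in the average depended on single libraries. It was lost without 23095 wildtype replicate 1 (edgeR adjusted p = 0.0850), 23095 wildtype replicate 2 (0.0807), 36433 mutant replicate 1 (0.0584), 36433 mutant replicate 3 (0.0625) or 36433 wildtype replicate 3 (0.0501). The log2 difference itself stayed between -0.96 and -0.73 over all 11 omissions. Without 36433 wildtype replicate 1, tspo was called in each line as well (edgeR adjusted p = 0.0448 in line 36433 and 0.0427 in line 23095). DESeq2 called it in line 36433 at a log2 difference of -0.88 (adjusted p = 0.0477). Scaled to the 8 red cell genes named above, a scaling added after the data had been seen, tspo averaged -0.97 with an SE of 0.48. It was not called (edgeR unadjusted p = 0.0420, adjusted p = 1.00), and the median over all genes was -0.09. By this scaling 687 of 20886 genes had an unadjusted p under 0.05 in the average.

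Summed myeloid markers were lower in the 23095 mutants than in their wildtypes, as tspo was. In line 36433 their sums overlapped, whereas the levels of tspo did not, but most single markers were lower in those mutants too. The 20 matched markers of neutrophils and macrophages summed to 66.5, 102 and 138 CPM in the 36433 wildtypes and to 70.4, 77.1 and 64.3 CPM in the mutants. In line 23095 they summed to 108 and 102 CPM in the wildtypes and to 52.8, 54.0 and 56.3 CPM in the mutants. In the average over both lines 10 of the 17 tested markers fell by edgeR's test and none rose (against 1.03% of all genes lower and 1.3% higher), with a median log2 difference of -1.70. In line 23095 edgeR called 7 of 17 lower against 0.934% of all genes, and 12 had an unadjusted p under 0.05 against 16.8%. In line 36433 edgeR called 0 of 17, with 8 at an unadjusted p under 0.05 against 6.75% of all genes. The median log2 difference there was -1.27, with 15 of 17 below 0 against 52.3% of all genes. Some single markers, among them lcp1, coro1a and ptprc, lay below the 36433 wildtypes without overlap, as tspo did and as for 6.28% of all genes. Others, among them lyz, csf1ra and cebpa, overlapped. Of the 20 markers, 4, 4 and 6 were at 0 counts in the 23095 mutants, among them lyz, the lysozyme gene of these cells, in replicate 4, and 0 to 2 were at 0 in each of the other libraries. Their part in the fall of tspo was not tested.

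**Figure D3:**
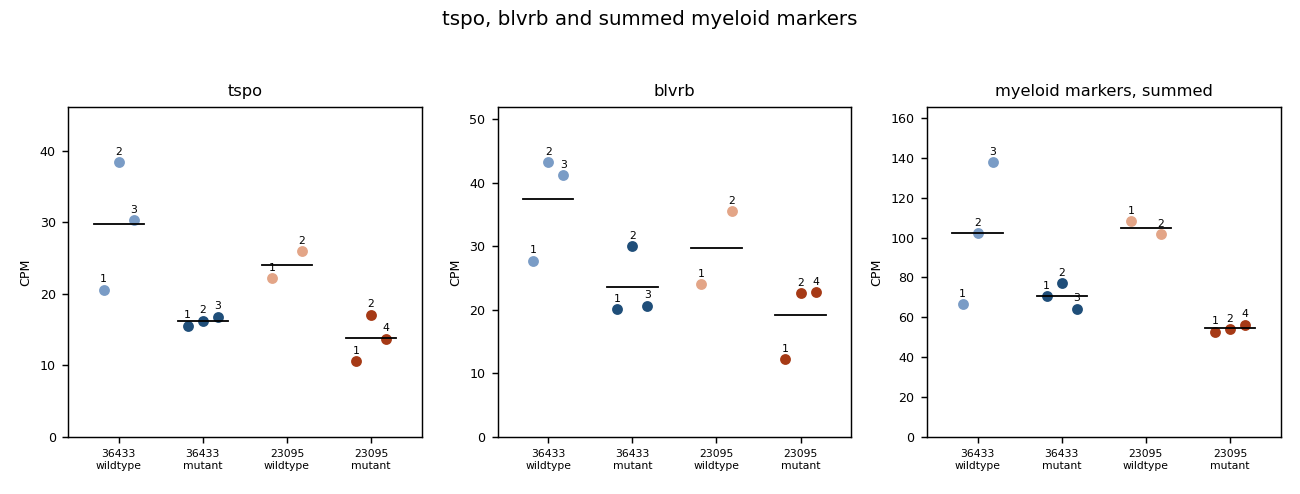
CPM of tspo, of the heme breakdown gene blvrb and of 20 summed myeloid markers in each library (linear axes from 0), with points labelled by replicate and bars for group means. The 23095 mutants lie below the 23095 wildtypes in all panels, whereas in line 36433 wildtype replicate 1 lies close to the mutants for tspo and among them for blvrb and the myeloid sum.

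Among tested genes with a symbol and a mean log2 CPM of at least 1, the profile nearest that of tspo was ALDH9A1. Its root mean square difference was 0.20 in log2 CPM over the 11 libraries, after centring each gene on its own mean. Next was blvrb, biliverdin reductase B, at 0.22, and SLC29A4 at 0.23 and cldn1 at 0.24 were also among the nearest. This likeness was computed after the values of tspo had been seen. The level of blvrb was 27.7, 43.2 and 41.1 CPM in the 36433 wildtypes, 20.1, 30.0 and 20.6 CPM in the 36433 mutants, 24.0 and 35.5 CPM in the 23095 wildtypes and 12.2, 22.5 and 22.7 CPM in the 23095 mutants. Mutants lay below wildtypes in line 23095, as for 17.4% of all genes, and overlapped them in line 36433. The average log2 difference of blvrb was -0.65 and was not called (edgeR adjusted p = 0.110). It was called with the replicate number as a block (-0.74, edgeR adjusted p = 0.0468), without 36433 wildtype replicate 1 (-0.75, 0.0394) and by DESeq2 (-0.65, adjusted p = 0.0404). Among all genes these fits called 108, 1439 and 1083 in the average, in that order.

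None of the 8 members other than tspo was called in either line. In line 36433 their median log2 difference was -0.27 and 7 of 8 were below 0, against a median of -0.02 and 52.3% below 0 over all genes tested. In line 23095 their median was 0.47 with 6 of 8 above 0, against 0.02 over all genes, but it was -0.05 without 23095 wildtype replicate 1 and 1.17 without replicate 2. In line 36433 the median was -0.06 without 36433 wildtype replicate 1 and -0.43 without 36433 wildtype replicate 3. Averaged over both lines the median was 0.16, with 5 of 8 above 0, and it ran from -0.16 without 23095 wildtype replicate 1 to 0.48 without replicate 2. The difference of the mutant effects between the lines was above 0 for all 8, with a median of 0.78 against 0.03 over all genes, but edgeR and DESeq2 each called 0 of 8, where edgeR called 0.00958% of all genes. By edgeR 1 of 8 (uros) had an unadjusted p under 0.05, against 7.59% of all genes. That median was 0.26 without 23095 wildtype replicate 1, 0.45 without 23095 mutant replicate 2, 0.53 without 36433 wildtype replicate 1 and 1.48 without 23095 wildtype replicate 2. The direction of alad turned without 23095 wildtype replicate 1 (-0.13), and those of alad and fech turned without 23095 mutant replicate 2 (-0.002 and -0.01).

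The wildtypes of the lines were compared in the same way, and no member was called. All 8 fitted values were lower in the 23095 wildtypes than in the 36433 wildtypes, with log2 differences of -0.88 to -0.22 and a median of -0.66 against -0.02 over all genes. edgeR and DESeq2 each called 0 of 8, where edgeR called 0.393% of all genes. By edgeR 1 of 8 (uros) had an unadjusted p under 0.05, against 13.7% of all genes, and the smallest adjusted p was 0.206. The low values rested on 23095 wildtype replicate 1. Without it the differences ran from -0.43 to -0.01 with a median of -0.10, and without 23095 wildtype replicate 2 the median was -1.43. Without 36433 wildtype replicate 1 the value of fech turned to 0.05. Between the mutants of the lines the log2 differences ran from -0.31 to 0.22 with a median of 0.07, edgeR and DESeq2 each called 0 of 8, and 0 of 8 had an edgeR unadjusted p under 0.05. Among all genes edgeR called 1.13%, and 13.8% had an unadjusted p under 0.05. The lowest wildtype value of each member in line 23095 was that of replicate 1, the library with the fewest globin counts. These comparisons share the wildtype or mutant libraries of those within the lines, so they are not separate evidence.

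The order of the group means showed the same overlap. The 36433 wildtypes had the highest mean CPM for 6 of 9 members, and the 23095 mutants for urod, fech and tfr1a. The 23095 wildtypes had the lowest mean for alas2, uros, urod, cpox, fech and tfr1a, and the 23095 mutants for alad, slc25a37 and tspo. Of the 27 pairs of neighbouring groups in these orders, 26 overlapped in range. In the remaining pair the 23095 wildtypes stood clear of the 36433 mutants for tspo. Over all genes tested 12.8% of such pairs did not overlap.

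Libraries of the same group spread widely for most members. The residual SD in log2 CPM within groups was 0.79 for alas2, larger than for 95% of the tested genes. It was 0.64 for tfr1a and between 0.50 and 0.57 for cpox, urod, slc25a37 and fech. It was 0.32 for alad and uros and 0.31 for tspo. The median was 0.30 over all tested genes, and 0.21 over the 7599 genes with levels in the range of the members.

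The same libraries were high or low for nearly all members. In the 23095 mutants replicate 2, the library with the lowest total count, was the highest for 9 of 9 members, as it was for 37.6% of all genes. In the 23095 wildtypes replicate 2 was above replicate 1 for 9 of 9, against 50% of all genes. In the 36433 wildtypes replicate 3 was the lowest for 8 of 9, against 30.2%, and in the 36433 mutants replicate 2 was the lowest for 8 of 9, against 32.6%. In both cases tspo was the exception.

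**Figure D4:**
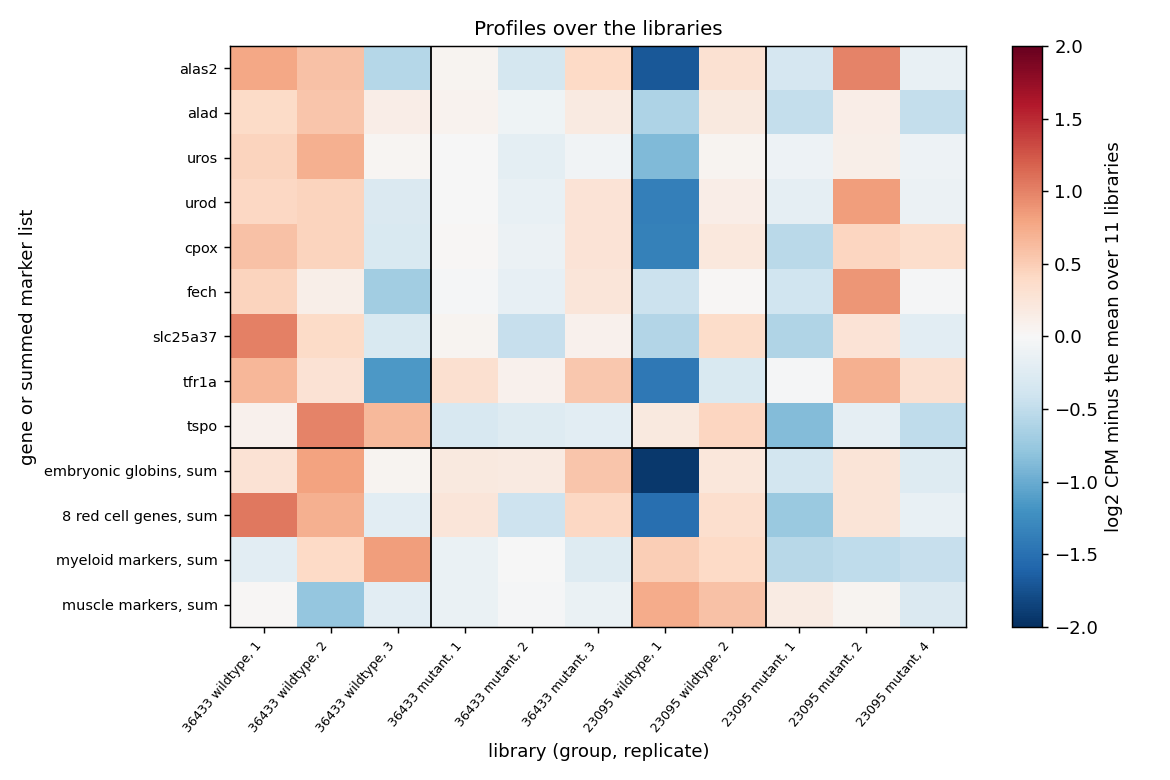
Log2 CPM of each member (top) and of 4 summed marker lists (bottom) in the 11 libraries, each centred on its own mean over all libraries; red is higher and blue lower on a scale from -2 to 2. The members except tspo are pale or blue together in 23095 wildtype replicate 1, as are the globins and the 8 red cell genes.

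The profile of alas2 over the libraries was closest to that of urod among the 16417 genes compared, with a root mean square difference of 0.21 in centred log2 CPM. The other members followed, cpox at 0.29 (5th), tfr1a at 0.38 (12th) and slc25a37 at 0.44 (25th). Further down came fech at 0.44 (28th), uros at 0.46 (30th) and alad at 0.50 (49th), while tspo was 12082nd at 0.85. Outside the gene lists used here, the nearest genes with a symbol were parm1 at 0.27, FOXN2 at 0.30, GP1BB at 0.32, si:ch211-227m13.1 at 0.34 and si:ch211-207c6.2 at 0.36. These likenesses describe the 11 libraries, and the part of red cell content in them was not tested.

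The levels of red cell genes were set beside those of the members. The 8 red cell genes named above summed to 167, 131 and 68.9 CPM in the 36433 wildtypes, 95, 60.4 and 106 CPM in the 36433 mutants, 28.2 and 101 CPM in the 23095 wildtypes and 48.1, 96.0 and 71.9 CPM in the 23095 mutants. The lowest of these sums was again that of 23095 wildtype replicate 1. The summed wider list of red cell regulators and membrane genes was not low in that library. It stood at 1090 CPM there, within 734 to 1265 CPM over the 11 libraries. A single gene, sptb, made up 48.5% of that sum, and sptb was higher in the 23095 wildtypes than in the 36433 wildtypes without overlap. In the wider list of red cell regulators and membrane genes edgeR called 2 of 26 higher (lmo2 and gfi1b, blood transcription factors also active outside red cells) and 1 lower (AQP1, a water channel) in the average, with log2 differences of 1.09, 1.72 and -0.74. The median of that list was -0.23. Of 10 tested embryonic globins, 1 was called in the average, HBE1 ENSDARG00000045143, with a log2 difference of 2.12 (edgeR adjusted p = 0.0113), and the median was 0.17. For both lists, the share of all genes that edgeR called in the average was 1.3% higher and 1.03% lower.

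Relative to red cell genes, tfr1a was higher in the mutants of both lines on some scales. The ratio of tfr1a to the 8 red cell genes was 0.85, 0.81 and 0.31 in log2 in the 36433 wildtypes and 1.32, 1.74 and 1.37 in the mutants. It was 1.32 and 0.60 in the 23095 wildtypes and 1.96, 1.70 and 1.72 in the mutants. The mutants lay above the wildtypes in both lines, by 0.82 and 0.83, as for 0.359% of all genes. These 8 genes were set as the denominator after the data had been seen. In edgeR scaled to them, tfr1a averaged 0.80 with an SE of 0.49 (unadjusted p = 0.101) and was not called. Over the wider red cell list, of which sptb alone took 23.0% to 49.2%, the tfr1a ratio was higher by 0.58 and 1.59 with overlap in line 36433, and over the summed globins it was higher by 0.47 and 0.48 with overlap in both lines. These ratios were picked out after their values had been seen and carry no test. For alas2 over the 8 red cell genes the groups overlapped in line 36433, with a difference of 0.21, and the 23095 mutants lay above their wildtypes by 0.49. The share of all genes that did so on this ratio in line 23095 was not computed. On CPM alone, 16.4% of all genes lay higher without overlap there, which is a different scale. On the ratio to the 8 red cell genes cpox also lay higher without overlap in line 23095 (by 0.28) and fech in line 36433 (by 0.50). There, tspo lay lower in line 23095 (-1.20). The shares of all genes that did so are not given for these either. This scaling moved genes in general: in edgeR scaled to the 8 genes the median over all genes was 0.37 in line 36433 and -0.55 in line 23095. The alas2 ratio overlapped in both lines over the summed globins (-0.15 and 0.14) and over the wider red cell list (-0.04 and 1.25).

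**Figure D5:**
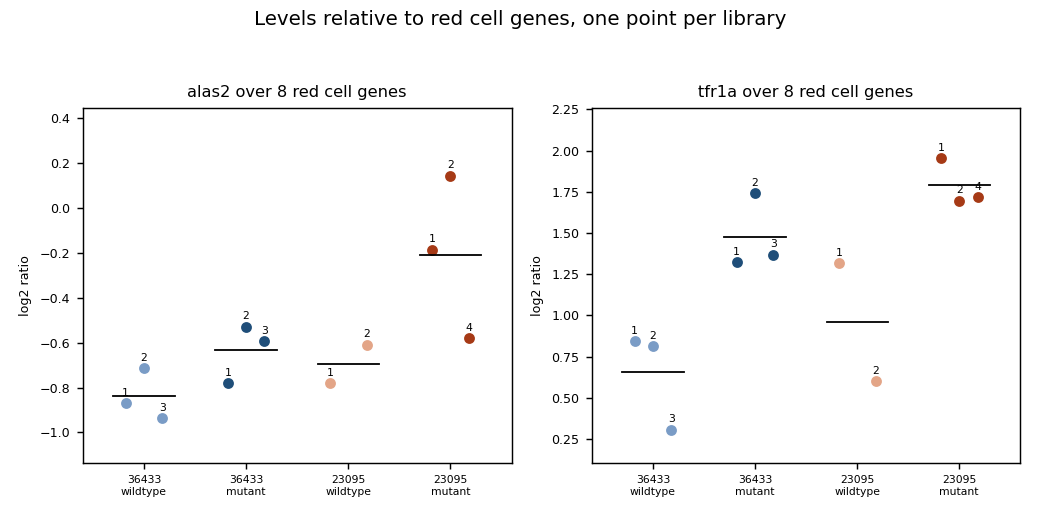
Log2 ratio of alas2 and tfr1a to 8 summed red cell genes in each library, with points labelled by replicate and bars for group means. The mutants lie above the wildtypes of their line for tfr1a, and for alas2 the 36433 groups overlap.

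Other genes of heme and iron handling were covered by lists of 22 further heme synthesis and transport genes, 5 heme breakdown genes, 23 genes of iron uptake, storage and export and 19 of iron-sulphur cluster assembly, all tested. Of these 69 genes edgeR with TMM factors called 0 in each of the 6 comparisons, where it called 0.00958% to 2.33% of all genes. At such shares few calls or none would be found among 69 genes. From 2 to 8 had an unadjusted p under 0.05 (2.9% to 11.6%), against 6.75% to 17.4% of all genes. In the average 8 of 69 did, which is 11.6% against 17.4% of all genes, with medians of 0.02, -0.12, -0.01 and -0.07 for the 4 lists in that order. DESeq2 called 3 in the average (blvrb, fthl30 and HJV), 1 in line 23095 (HJV) and 4 between the mutants of the lines (HJV, FTH1, fthl28 and fthl31). Of all 20886 genes tested, DESeq2 called 1083, 980 and 602 in these comparisons, in that order. In other edgeR fits HJV was called in line 23095 by library totals (adjusted p = 0.0365), by the newer quasi-likelihood form (0.0492) and without 36433 wildtype replicate 1 (0.0434), and in the average by library totals (0.0329). Among all genes these fits called 369, 448 and 619 in line 23095, and library totals called 572 in the average. Between the mutants of the lines edgeR called fthl31 by library totals, HJV by the newer form, and both without 36433 wildtype replicate 1. That last fit also called isca1 in the average. Among all genes the 3 fits called 266, 283 and 384 between the mutants, and the last called 1439 in the average.

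In the heme synthesis list, alas1, the form of the first enzyme used by most tissues, was chosen for mention after its values were seen. It stood at 66.6, 74.0 and 69.1 CPM in the 36433 wildtypes, 69.2, 73.8 and 65.6 CPM in the 36433 mutants, 69.6 and 58.3 CPM in the 23095 wildtypes and 65.8, 98.6 and 64.3 CPM in the 23095 mutants. It varied less than alas2, apart from the same high library, 23095 mutant replicate 2. Protoporphyrinogen oxidase, encoded by ppox, acts between cpox and fech. Its level was 15.3, 13.2 and 6.66 CPM in the 36433 wildtypes, 8.04, 6.50 and 8.47 CPM in the 36433 mutants, 5.74 and 13.8 CPM in the 23095 wildtypes and 5.49, 10.5 and 5.02 CPM in the 23095 mutants. It was low in the same wildtype libraries as alas2, and its average log2 difference of -0.57 was not called (edgeR adjusted p = 0.320). ABCB6 ENSDARG00000074254, a porphyrin transporter, differed by 0.32, and abcg2a, related to a mammalian porphyrin exporter, by -0.43.

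In the iron list the smallest p in the average was that of HJV, hemojuvelin, a co-receptor that in mammals sets hepcidin and is also made in muscle. Its level was 80.9, 90.3 and 82.6 CPM in the 36433 wildtypes, 86.8, 92.4 and 96.0 CPM in the 36433 mutants, 85.1 and 93.6 CPM in the 23095 wildtypes and 127, 144 and 128 CPM in the 23095 mutants. The 23095 mutants stood above the other libraries, and the average log2 difference of 0.34 was not called (edgeR adjusted p = 0.0752). The ferritin-like gene fthl30 was at 2.11 and 1.74 CPM in 36433 mutant replicates 1 and 3 and under 1 CPM in the other 9 libraries, with an average of 2.48 (edgeR adjusted p = 0.144). The ferric reductase gene cybrd1 averaged 0.50 (edgeR adjusted p = 0.171).

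In iron-sulphur assembly the smallest p values were those of isca1, ISCU ENSDARG00000026582, the scaffold protein, and nfu1, with average log2 differences of -0.39, 0.55 and -0.24 and edgeR adjusted p of 0.184, 0.284 and 0.303. In heme breakdown the other biliverdin reductase, blvra, averaged 0.22 and the heme oxygenase hmox2b 0.17, neither called.

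The remaining marker lists describe what else differed between these groups of tails. In the average edgeR called 1 of 20 skeletal muscle markers lower (pvalb1, a parvalbumin, log2 difference -2.15), 1 of 11 yolk layer and liver markers lower (rbp4, a retinol carrier, -0.98) and 2 of 9 vessel markers higher (FLI1, 0.69, and tek, 1.16), against 1.03% of all genes lower and 1.3% higher. In line 23095 edgeR called 3 of 20 muscle markers lower against 0.934% of all genes, with a median of -0.77 and 14 at an unadjusted p under 0.05 against 16.8% of all genes. In line 36433 it called 0 of 20, with a median of -0.01 and 1 at an unadjusted p under 0.05 against 6.75%. Between the wildtypes, 19 of 20 muscle markers were higher in line 23095 than in line 36433, with a median of 0.68 and 0 called. There, 10 had an edgeR unadjusted p under 0.05 against 13.7% of all genes. Between the mutants of the lines the median was -0.11. The mutants of line 23095 were thus compared with wildtypes that were themselves high for muscle markers as a list. For pvalb1, however, the wildtypes of the lines overlapped, and the 23095 mutants lay below the 36433 mutants without overlap. The part of these lists in the values of the members was not tested.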

How the data were processed

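Total RNA libraries were made with a stranded kit that removes ribosomal RNA, per the labels' protocols. The submitters' processing notes name STAR 2.7.2c, cutadapt 1.16, DESeq2 1.22.2 and the build GRCz11, without roles. For the counting tool, its use of strand and the annotation, the entry is not given in the sources used here. Raw counts were deposited by the authors per gene and library. The authors also deposited log2 fold changes and adjusted p-values, per the file headers, of which those within each line are quoted. Symbols came from the gene name table (21998 of 23617 identifiers). Neither sequences nor coordinates were used.

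Counts were scaled with TMM factors, filtered with filterByExpr (minimum count 10, minimum total 15) and fitted by the two-sided quasi-likelihood F-test of edgeR 4.0.16 (R 4.3.3) as 4 group means over 11 libraries, which leaves 7 residual degrees of freedom. P-values were adjusted over 20886 genes (Benjamini-Hochberg) and called under 0.05. Intervals are unadjusted and cover the spread between libraries. Log2 CPM used a prior count of 2, and ratios used none. The fit was tested on simulated data. Alternatives were DESeq2 1.42.0, its size factors, library totals, other filters, a newer quasi-likelihood form, fits restricted to the groups compared, a block for the replicate number, each library left out, and, after the data were seen, scaling to 8 red cell genes and other denominators.

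The members, lists and rules were chosen with earlier results of these data known. The genes named are the members, kdm1a, up to 3 genes of each other list with the smallest p in the average (of the myeloid list only counts and sums are given), any called gene of the heme and iron lists, and the 5 genes outside the lists closest to alas2. Other genes were named after their values were seen. Some genes are not reported here.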

Additional observations from a re-analysis of the deposited data

How the results depend on the processing

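Of the log2 differences of single members in 5 comparisons, that between mutants of the lines aside, 335 values under the alternatives that kept all libraries had the same direction and the same side of the threshold, 1 gained a call (tspo in line 36433 by DESeq2) and 6 turned. Scaling to red cell genes was not counted here. With 1 library left out, 460 did, 2 gained and 5 lost a call (all tspo, given in the report), and 28 turned. The turned values were not called. Between mutants of the lines, where the members were followed as a group, their median without tspo ran from -0.22 to 0.24 over all alternatives with 0 calls. Each member had at least 132 counts in each library, and with 2 or 3 pools per group single libraries moved the values. Where leaving one out left 1 wildtype in line 23095, the lone library was assumed to vary like the other groups. The cause of each change below was not tested.

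By library totals fech turned to 0.033 in line 36433, and in line 23095 alad turned to 0.0053. This scaling moved the median of all genes by 0.124 in line 23095, 0.0888 in the average and 0.0537 in line 36433, so both values lay below that shift, and its calls split into 207 higher and 162 lower in line 23095 against 145 and 195, and 390 and 182 in the average against 271 and 215. The value of fech in line 36433 was 0.0013 where genes needed 1 CPM in 3 libraries and 0.0055 where other groups were left out.

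The main counts of called genes were 35 (line 36433), 340 (line 23095), 486 (average), 2 (difference), 82 (wildtypes) and 235 (mutants of the lines). DESeq2 called 124, 980, 1083, 57, 569 and 602 in that order. The newer quasi-likelihood form called 132 between wildtypes. Fits without the other groups called 6 in line 23095 and 52 between wildtypes, with fewer libraries to estimate the spread. Scaling to 8 red cell genes called 13, 117 and 81 in the lines and the average, and put the median of all genes at 0.37, -0.55 and -0.09. It ended the call of tspo, whose log2 difference in the average was then -0.97. With 1 library left out the counts ran from 12 to 64, 4 to 619, 56 to 1439, 0 to 4, 21 to 301 and 65 to 384 in the same order. The highest counts came without 36433 wildtype replicate 1, except for the difference (23095 mutant replicate 1 or wildtype replicate 2). The lowest came without 23095 wildtype replicate 1, except in line 36433 (36433 mutant replicate 3) and between mutants (36433 mutant replicate 2).

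The replicate numbers share no stated source. Same-numbered mutant and wildtype libraries had correlations of deviations of 0.24, 0.11 and -0.04 in line 36433. Those with different numbers had -0.28 to 0.26 there. In line 23095 same-numbered libraries had -0.10 and -0.26. With 2 wildtypes in that line their deviations mirror each other, so these values say little on pairing. The numbers were not taken to pair the libraries. With the replicate number as a block, counts were 22, 9, 108, 0 and 64 in the lines, the average, the difference and between mutants, and tspo was still called in the average, where blvrb gained a call. Under the block fech turned to 0.042 in line 36433, and in line 23095 alad turned to 0.024.

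With each library left out in turn, members that turned in line 36433 ranged from -0.26 to 0.26 (fech) and -0.16 to 0.59 (tfr1a). In line 23095 the ranges were -0.024 to 1.99 (alas2), -0.44 to 0.37 (alad), -0.087 to 0.85 (uros), -0.070 to 1.49 (cpox), -0.016 to 0.67 (fech) and -0.52 to 0.45 (slc25a37). In the average they were -0.17 to 0.84 (alas2), -0.38 to 0.027 (alad), -0.30 to 0.17 (uros), -0.023 to 0.72 (urod), -0.15 to 0.63 (cpox) and -0.0092 to 0.33 (fech). The difference between lines ranged from -0.13 to 0.68 (alad), -0.015 to 0.69 (fech) and -0.16 to 0.24 (tspo), and that between wildtypes from -0.47 to 0.045 (fech).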
